A study of Rattus norvegicus with 2 samples.

Results

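Glutathione S-transferases of the duodenal mucosa were compared between an immobilized rat and a control rat. All probe sets annotated to Gsta1, Gsta2, Gsta3, Gsta4, Gstm1, Gstm2, Gstm3, Gstp1, Gstt1 or Mgst1 were taken as members, also sets that list several genes. This gave 19 of the 8740 gene probe sets of the rat U34A array, an Affymetrix oligonucleotide array on which 1 gene can have several probe sets. They cover 9 of the 10 genes, since no probe set was annotated to Gstm3, whose signal was not analysed here. Of the 19 sets, 10 belonged to the alpha class, 5 to mu, 2 to pi, 1 to theta and 1 to the microsomal class.

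The immobilized rat was kept in an immobilization cage for 2 weeks. The control rat spent the same 2 weeks in a metabolic cage without immobilization, so cage type and immobilization cannot be told apart. Both were male Wistar rats aged 15 weeks, and the material is labelled as epithelial cells of the duodenum, taken as mucosa per the design text. Each rat gave 1 array, pooling is not mentioned, and a difference between rats cannot be set against a spread between animals, so no test was made.

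Glutathione transferases join the tripeptide glutathione to reactive compounds from food, drugs and lipid peroxidation, which are then exported and broken down to mercapturic acids. The alpha, mu, pi and theta classes are soluble dimers, whereas the microsomal enzymes are unrelated membrane proteins of the MAPEG family. The small intestine is known for abundant alpha and pi class enzymes in enterocytes. Many members carry antioxidant response elements, sites bound by the transcription factor NRF2 (gene Nfe2l2), and respond to dietary electrophiles.

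Most transferase signals were alike in both rats, and 2 genes stood out in opposite directions at each of their probe sets. Gstm2, a mu class enzyme whose human counterpart conjugates quinones such as aminochrome, was higher in the immobilized rat. Gsta4, the alpha class enzyme specialised for hydroxynonenal and related aldehydes of lipid peroxidation, was lower. Gsta1, Gsta2, Gsta3, Gstm1, Gstp1 and Mgst1 had ratios within the technical SD of the whole array at every set above the signal floor. The technical SD is the spread of log2 ratios between probe sets of the same gene over the whole array, 0.31 from 696 genes with 1570 sets. It measures how far sets of a gene disagree, not the spread between animals. The signal floor is the median of all signals, 39.97 units, and ratios are immobilized over control, only where both arrays exceed it.

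**Figure D1:**
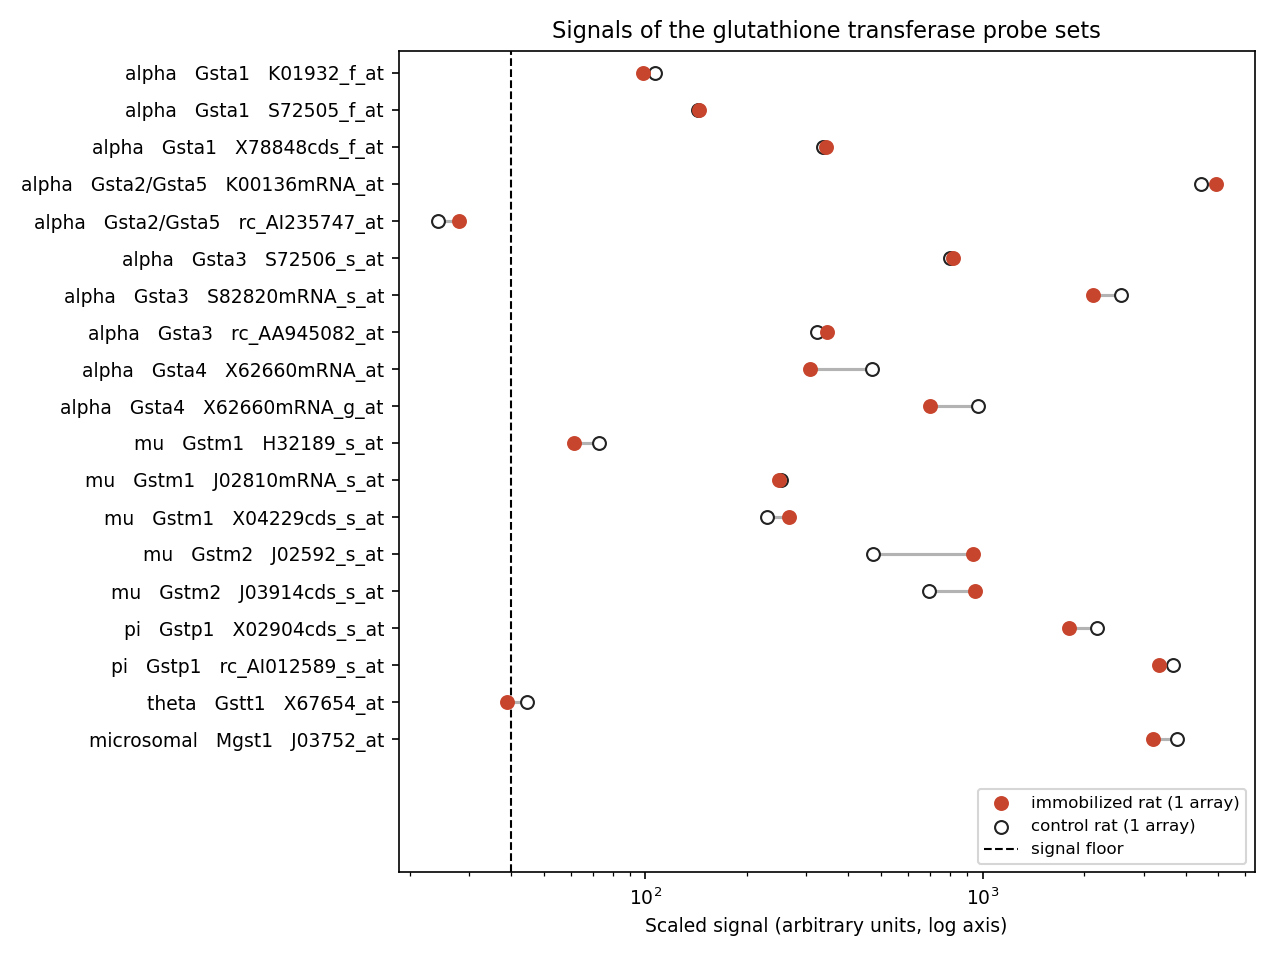
Scaled signals (arbitrary units, log axis) of the 19 glutathione transferase probe sets, with filled points for the immobilized rat, open points for the control rat (1 array each) and the signal floor as a dashed line. The points nearly coincide for most sets, while they lie apart for both Gstm2 sets, higher in the immobilized rat, and both Gsta4 sets, lower in the immobilized rat.

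Gstm2 had 937 units in the immobilized rat and 471.5 in the control rat at probe set J02592_s_at, a log2 ratio of 0.99 or 1.99-fold. At its other set, J03914cds_s_at, the signals were 952 in the immobilized rat and 694 in the control rat, a log2 ratio of 0.46. The ratios were 3.20 and 1.47 times the technical SD. Both sets thus gave a higher signal in the immobilized rat but differed in size by 0.53 on the log2 scale. Over the 696 genes with several sets above the floor, the median gap between the highest and lowest set was 0.28, and 22.1% of genes had a gap of at least that of Gstm2. Of all 4105 gene probe sets above the floor, 2.44% had a ratio at least as high as that of J02592_s_at and 13.4% one at least as high as that of J03914cds_s_at.

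Gsta4 had 309 units in the immobilized rat and 469 in the control rat at probe set X62660mRNA_at, a log2 ratio of -0.61 or 1.52-fold lower. At X62660mRNA_g_at it had 699 units in the immobilized rat and 968 in the control rat, a log2 ratio of -0.47. The 2 sets come from the same transcript record, as their shared name shows, and lay 0.14 apart on the log2 scale. A ratio as low was found for 4.99% of all sets above the floor at the first value and for 9.23% at the second. Among the 696 genes with several sets, 4.60% were at least 1.3-fold lower at every set, as Gsta4 was, and 6.90% at least 1.3-fold higher at every set, as Gstm2 was. This 1.3-fold limit was chosen after the values were seen, so these shares only describe where both genes lie.

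Promoter windows of both genes, and of Gstp1 for its known element, are given here because Gstm2 and Gsta4 differed in opposite directions. Each runs from 250 bases before to 50 after the annotated start in RefSeq (GRCr8), 5′ to 3′ on the gene's strand. Capitals mark matches, on either strand, to TGACNNNGC (the antioxidant response element core), TGANTCA (the AP-1 site), GCGTG (the xenobiotic response element core bound by the aryl hydrocarbon receptor) or TATAAA (the TATA box). The windows lie at chr2:198316868-198317167 on the minus strand for Gstm2, chr8:87947015-87947314 on the plus strand for Gsta4 and chr1:210769656-210769955 on the minus strand for Gstp1.
Gstm2: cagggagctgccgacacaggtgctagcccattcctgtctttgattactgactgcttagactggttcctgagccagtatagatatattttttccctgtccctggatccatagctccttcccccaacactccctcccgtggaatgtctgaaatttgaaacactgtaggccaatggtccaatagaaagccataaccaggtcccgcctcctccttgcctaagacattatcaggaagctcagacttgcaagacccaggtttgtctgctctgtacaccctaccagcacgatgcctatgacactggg
Gsta4: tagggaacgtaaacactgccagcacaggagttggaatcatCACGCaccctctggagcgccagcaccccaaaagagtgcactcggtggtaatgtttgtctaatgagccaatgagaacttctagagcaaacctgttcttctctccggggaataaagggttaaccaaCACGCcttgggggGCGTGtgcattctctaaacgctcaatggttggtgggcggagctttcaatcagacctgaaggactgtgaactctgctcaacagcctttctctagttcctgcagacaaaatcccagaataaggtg
Gstp1: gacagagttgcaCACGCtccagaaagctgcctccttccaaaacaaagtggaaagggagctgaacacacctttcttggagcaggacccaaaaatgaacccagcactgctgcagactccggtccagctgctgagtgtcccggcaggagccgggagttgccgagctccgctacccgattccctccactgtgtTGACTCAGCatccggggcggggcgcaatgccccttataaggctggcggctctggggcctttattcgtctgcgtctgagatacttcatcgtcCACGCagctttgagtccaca

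The Gstm2 window held none of the 4 motifs, and that of Gsta4 held GCGTG at 3 places and none of the others. In the Gstp1 window TGANTCA and TGACNNNGC overlapped, both starting 61 bases before the gene start, and GCGTG stood at 2 places. Among the 10 windows of 9 listed genes (Gsta3 has 2 starts, Gstt1 had no entry), TGACNNNGC occurred in 4, those of Gsta1, Gsta2, Gstp1 and 1 of Gsta3. It was in 12.1% of all 33469 promoter windows of this length. The matches began 30 bases after the gene start in Gsta1, 36 after it in Gsta2 and 17 before it in Gsta3. Those of Gsta1 and Gsta3 lie in a stretch that both windows share, so the 4 are not separate occurrences. TGANTCA was in 2 of the 10 (Gstp1 and Mgst1), against 7.33% of all windows. GCGTG was in 4 (Gsta2, Gsta4, Gstp1 and the other Gsta3 start), against 29.7%, and TATAAA in 3 (Gsta1, Gstm1 and Gstm3), against 14.2%. A match describes letters only, and elements outside the windows were not searched.

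Several genes of 1 class lie side by side in the rat genome, and the promoter windows most alike were those of an alpha and of a mu pair. Gstm3, Gstm2 and Gstm1 are neighbours in that order on chromosome 2, Gsta4 and Gsta2 flank Gsta5 on chromosome 8, and Gsta3 is next to Gsta1 on chromosome 9. In global alignments of the 45 pairs of windows, identical bases made up 46.0% to 67.7% of the window, with a median of 51.3%. The highest were Gsta1 with the first Gsta3 start at 67.7% and Gstm1 with Gstm3 at 63.7%. The other mu pairs, Gstm2 with Gstm3 at 55.7% and Gstm1 with Gstm2 at 54.3%, also lay above the median. Pairs of an alpha and a mu window reached a similar level, such as Gsta2 with Gstm1 at 55.3%. The other Gsta3 start with Gstm3 was at 54.7%, so this level is not particular to the mu class. Alpha pairs lay on both sides of the median. Gsta1 was at 51.7% with Gsta2 and at 48.3% with the other Gsta3 start.

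**Figure D2:**
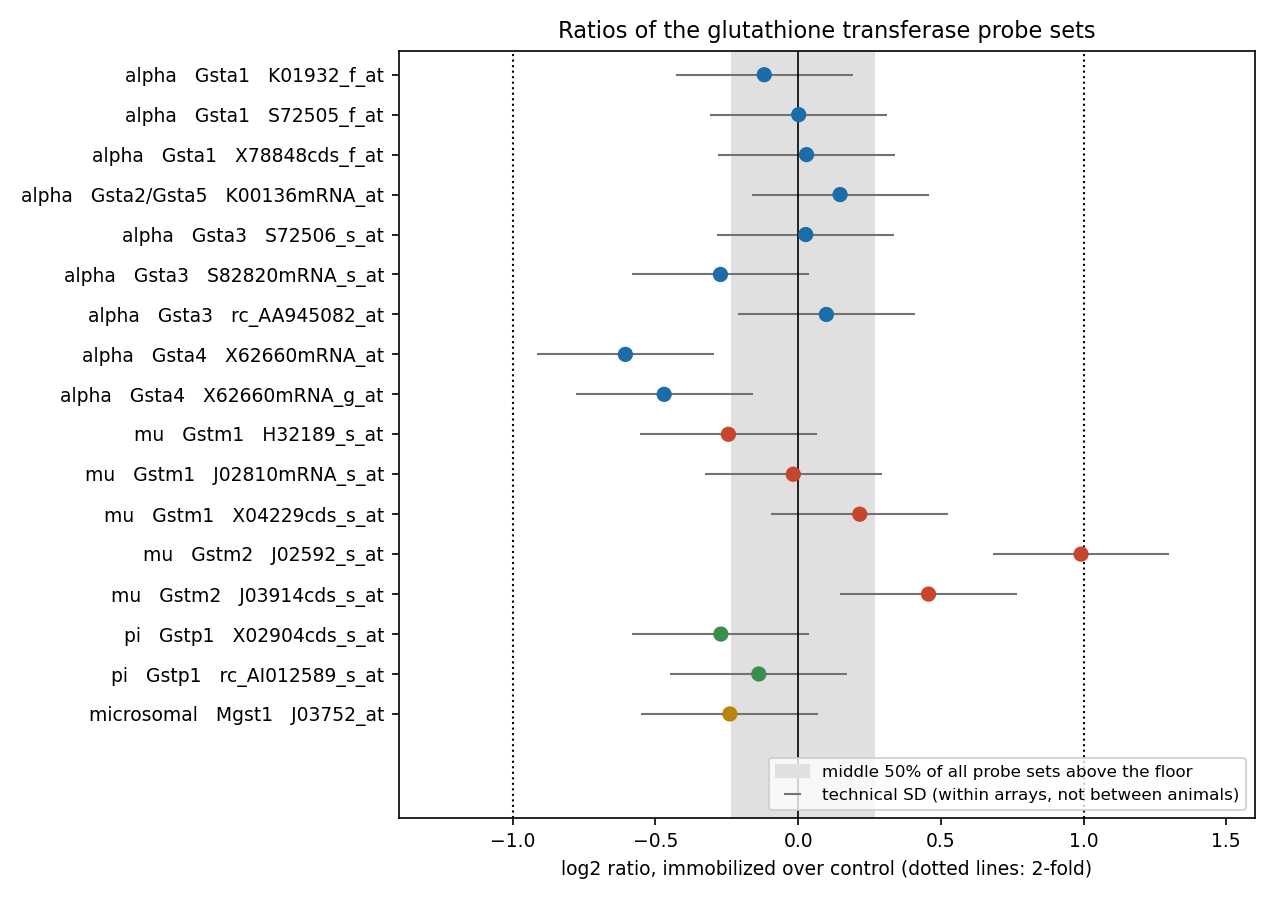
log2 ratios, immobilized over control, of the 17 transferase probe sets above the signal floor on both arrays, coloured by class, with bars of 1 technical SD (spread between sets of the same gene, not between animals) and a grey band for the middle 50% of all probe sets (-0.23 to 0.27). Both Gstm2 sets lie farthest to the right and both Gsta4 sets farthest to the left, with 1 Gstm2 set just inside the dotted 2-fold line.

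Of the 19 sets, 17 were above the floor on both arrays, 1 on the control array only and 1 on neither. Of these 17, the immobilized rat had the higher signal in 8 and the lower signal in 9, with a median log2 ratio of -0.02 and a range of -0.61 to 0.99. Over all 4105 sets above the floor, 50.1% were higher and 49.9% lower, with a median of 0.00. No member reached 2-fold (0 higher, 0 lower), where 2.34% of all sets were at least 2-fold higher and 0.853% at least 2-fold lower. At 1.5-fold, 1 member was higher and 1 lower, against 8.92% higher and 5.46% lower among all sets. A ratio within 1 technical SD of 0 was found for 13 of the 17 members and for 60.0% of all sets. The members' counts at 2-fold and 1.5-fold thus lie near the array's background.

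**Figure D3:**
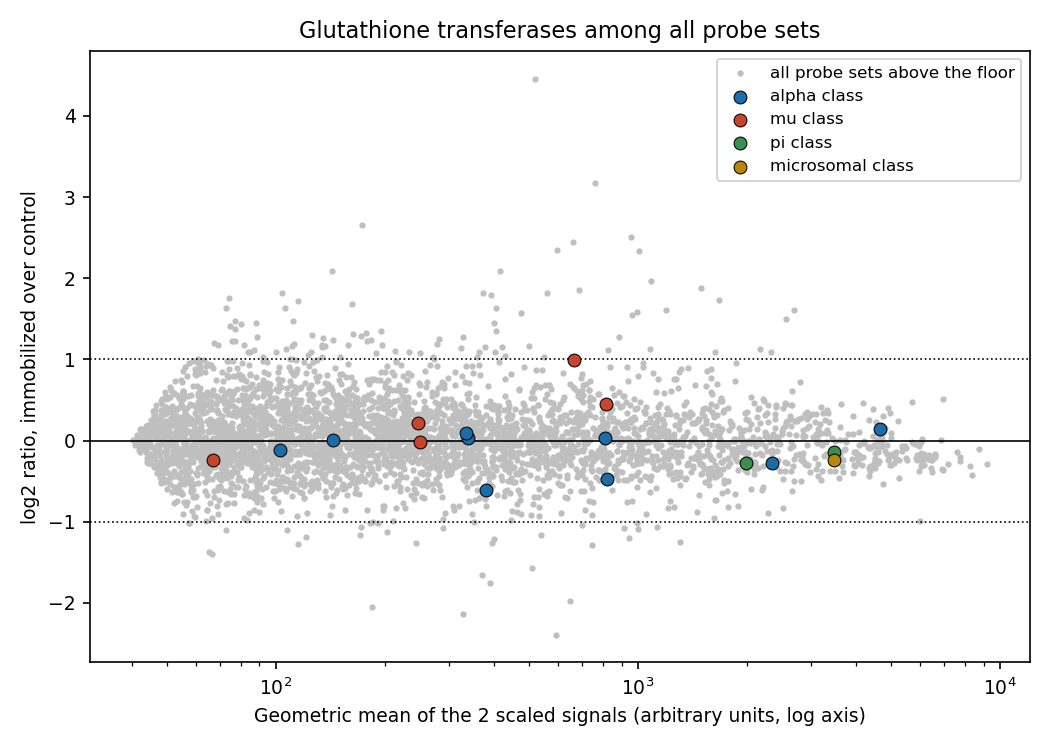
log2 ratio, immobilized over control, against the geometric mean of both scaled signals (log axis) for the 4105 gene probe sets above the floor (grey) and the 17 transferase sets (coloured by class), with dotted lines at 2-fold. The members span signals from the dim to the bright end of the array, and 1 mu class set lies at the upper 2-fold line.

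The alpha class apart from Gsta4 hardly differed. Gsta1, listed in RefSeq with the older subunit name Yc1, had 98.5 units in the immobilized rat and 107 in the control rat at K01932_f_at. At S72505_f_at it had 143.8 units in the immobilized rat and 143.6 in the control rat, and at X78848cds_f_at 343 units in the immobilized rat and 336 in the control rat. These log2 ratios of -0.12, 0.00 and 0.03 all lay close to 0. The suffix f marks Affymetrix sets whose probes match several members of a sequence family, so the signal may not be of Gsta1 alone.

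Gsta2, the rat Ya subunit and a classic target of the antioxidant response element, shared its sets with the neighbouring Gsta5. Set K00136mRNA_at gave 4913 units in the immobilized rat and 4437 in the control rat, a log2 ratio of 0.15. The other shared set, rc_AI235747_at, had 28.0 units in the immobilized rat and 24.2 in the control rat, under the floor on both arrays. Which of the 2 genes gave these signals cannot be told from sets annotated to both.

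Gsta3, listed with the older name Yc2 and known in rats for conjugating aflatoxin epoxide, had 3 sets with ratios on either side of 0. S82820mRNA_s_at gave 2129.8 units in the immobilized rat and 2572 in the control rat, a log2 ratio of -0.27. S72506_s_at gave 817 units in the immobilized rat and 802.5 in the control rat, and rc_AA945082_at gave 347 units in the immobilized rat and 324 in the control rat. Their log2 ratios were 0.03 and 0.10, so the 3 sets spanned 0.37. Over the whole alpha class, 5 of 9 sets above the floor were higher and 4 lower, with a median of 0.00 and a mean of -0.13 that carries the lower Gsta4 values.

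In the mu class, Gstm1 was level while its neighbour Gstm2 was higher. Gstm1, which conjugates epoxides and other electrophiles, had 61.6 units in the immobilized rat and 73.0 in the control rat at H32189_s_at. At J02810mRNA_s_at it had 249 units in the immobilized rat and 252 in the control rat, and at X04229cds_s_at 266 units in the immobilized rat and 229 in the control rat. The log2 ratios of -0.24, -0.02 and 0.22 lay on either side of 0, each within the technical SD. The class median was 0.22 over 5 sets, 3 of them higher and 2 lower, and its range of -0.24 to 0.99 was the widest of the classes. The suffix s marks sets whose probes match more than 1 transcript, and all 5 mu class sets carry it, so signal of near-identical mu genes could be shared between them. Both Gstp1 sets and the Gsta3 sets S72506_s_at and S82820mRNA_s_at carry it as well, so their signals may not be of 1 gene alone.

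The pi and microsomal enzymes had slightly lower signals in the immobilized rat, at 0.44 to 0.87 times the technical SD of the whole array. Gstp1, the pi class enzyme that serves in rat liver as a marker of preneoplastic foci, had 3324 units in the immobilized rat and 3657 in the control rat at rc_AI012589_s_at. At X02904cds_s_at it had 1807 units in the immobilized rat and 2179.7 in the control rat. The log2 ratios were -0.14 and -0.27. Mgst1, a membrane-bound transferase that also reduces lipid hydroperoxides, had 3204 units in the immobilized rat and 3781.5 in the control rat, a log2 ratio of -0.24. Genes brighter than 535 units had a technical SD of 0.266, against 0.33 for those below. X02904cds_s_at of Gstp1 (-0.271) and S82820mRNA_s_at of Gsta3 (-0.272) lay just beyond this narrower value.

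The theta class could not be compared. Gstt1, which acts on small halogenated compounds, had 38.8 units in the immobilized rat, under the floor, and 44.6 in the control rat, just above it. That makes the immobilized rat at least 1.12-fold lower, a bound smaller than the technical SD. Of the 6 listed genes with several sets above the floor, 3 (Gsta4, Gstm2 and Gstp1) had all sets on the same side of 0 and 3 (Gsta1, Gsta3 and Gstm1) had sets on both sides. Over the array 62.9% of such genes had all sets on the same side.

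For transferases outside the listed genes, most sets above the floor lay within 1 technical SD of 0, and none reached 2-fold. Of their 13 probe sets, 9 were above the floor on both arrays, 7 higher and 2 lower, with a median log2 ratio of 0.19. Over all sets above the floor, 50.1% were higher. Within 1 technical SD of 0 lay 6 of the 9 sets, against 60.0% of all sets. Gsto1, Gstk1 and Gstt2 gave 2 sets each to the 9. Gsto1, an omega class enzyme with thiol transferase and dehydroascorbate reductase activity, had 1872 units in the immobilized rat and 1004 in the control rat at AB008807_g_at, a log2 ratio of 0.90. Its other set gave 1184 units in the immobilized rat and 978 in the control rat, a ratio of 0.28. Gstm7, a further mu class gene, had 74.7 units in the immobilized rat and 46.8 in the control rat, a log2 ratio of 0.68 at signals not far above the floor. The peroxisomal and mitochondrial Gstk1 had log2 ratios of 0.08 and 0.33, and the theta class gene Gstt2 had -0.01 and 0.19. The microsomal gene Mgst3 was at 0.10 and Mgst2, which can make leukotriene conjugates, at -0.29. Gstm5 was above the floor in the control rat only, with 37.9 units in the immobilized rat and 64.5 in the control rat at its brighter set, at least 1.61-fold lower, and the prostaglandin D synthase Hpgds was under it in both. The other Gstm5 set, U86635_at, had 39.0 units in the immobilized rat and 36.9 in the control rat, under the floor on both arrays. The direction of Gstm5 thus rests on 1 set. RefSeq lists Gstm3 as an older name of both Gstm7 and Gstm5. In the wider list, Eef1g, an elongation factor subunit with a transferase-like domain, was at 0.58 and the MAPEG member Alox5ap at -0.04 (0.34 at another set). With 1 value per gene, that list of 8 genes above the floor had 5 higher and 3 lower and a median of 0.09. Among all 2524 genes above the floor, 49.5% were higher, 50.5% lower, 2.02% at least 2-fold higher and 0.674% at least 2-fold lower.

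**Figure D4:**
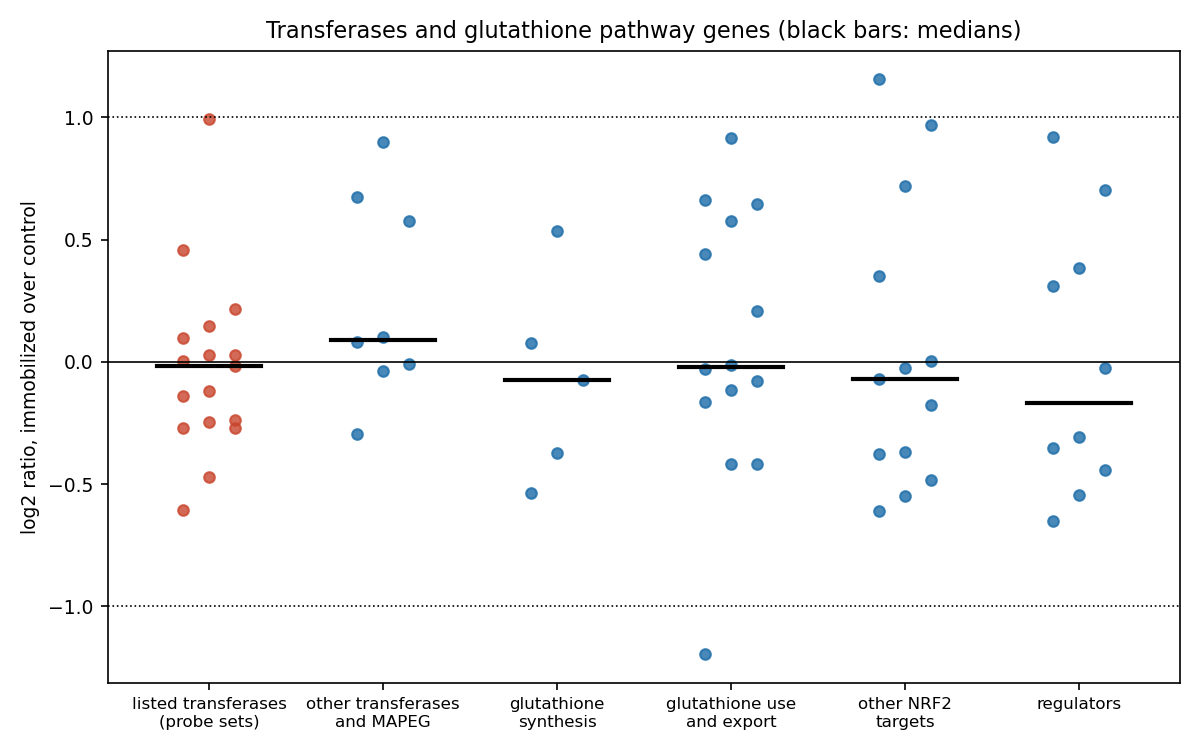
log2 ratios, immobilized over control, of the 17 listed transferase probe sets (left) and of genes of 5 related lists above the floor on both arrays, 1 point per gene, with black bars at the medians and dotted lines at 2-fold. All 6 medians lie within 0.17 of 0, and among the points shown, single genes pass 2-fold in glutathione use and export (lower) and among other NRF2 targets (higher).

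Genes that make glutathione were mixed, with no 2-fold difference among 5 above the floor. Gclc, the catalytic subunit of the rate-limiting glutamate-cysteine ligase, had 75.3 units in the immobilized rat and 52.0 in the control rat, a log2 ratio of 0.53. Its modifier subunit Gclm had 293 units in the immobilized rat and 380 in the control rat, a ratio of -0.37 (-0.70 at the lowest of 3 sets). Cth, which supplies cysteine, was at -0.54 (-0.59 at its other set). The synthetase Gss (-0.08) and the reductase Gsr (0.08), which regenerates glutathione, were level. The list had 2 genes higher and 3 lower and a median of -0.08.

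Among genes that use, degrade or export glutathione and its conjugates, 6 of 14 were higher and 8 lower, with a median of -0.02. Ggt1, the brush border enzyme that starts the breakdown of glutathione conjugates, had 625 units in the immobilized rat and 1430.5 in the control rat, a log2 ratio of -1.19 and the only 2-fold difference among the 14. Adh5, which oxidises the glutathione adduct of formaldehyde, was at 0.92, the secreted peroxidase Gpx3 at 0.66 and the conjugate exporter Abcc3 at 0.65. These 3 were higher in the immobilized rat. Another exporter in the list, Abcc2, was lower, at -0.42. Of the other peroxidases, Gpx2 was lower, at -0.42, and Gpx1 (0.58, with 0.25 at its other set) and Gpx4 (0.21) were higher. The lower Gpx1 value and that of Gpx4 lay within the technical SD.

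NRF2 targets outside these lists had 5 of 13 genes higher and 8 lower, with a median of -0.07. The epoxide hydrolase Ephx1 was at 1.15, and of the 13 genes it alone passed 2-fold at the brightest set. Me1, which supplies NADPH, was at -0.55, with -1.08 at its lowest set and 0.15 at its highest. Aldh3a1, an aldehyde dehydrogenase, was above the floor in the control rat only, with 35.2 units in the immobilized rat and 83.6 in the control rat, at least 2.09-fold lower. Catalase Cat was at 0.97 (0.07 at another set) and the carbonyl reductase Cbr1 at 0.72, whereas the thioredoxin reductase Txnrd1 was at -0.61 (-1.29 at another set). Among regulators of transferase genes, 4 of 10 were higher and 6 lower, with a median of -0.17. Nfe2l2 had 354 units in the immobilized rat and 556 in the control rat, a log2 ratio of -0.65 (-0.68 at its other set), and its partner Mafk was at -0.54. The retinoid receptor Rxra (0.92, signals of at most 84.5) and Cebpb (0.70) lay above 0. The receptor gene Ahr was under the floor on both arrays. Messenger levels of Nfe2l2 do not measure the NRF2 protein.

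Enterocyte genes gave signal on both arrays, and markers of other cell types differed between the rats as well. The list of 14 villus enterocyte genes was above the floor throughout, 13 lower and 1 higher in the immobilized rat, with a median of -0.30 and summed signals of 52343 in the immobilized rat and 61033 in the control rat. Exocrine pancreas genes were higher for 13 of 13, with a median of 0.87 and sums of 13248 in the immobilized rat and 6966 in the control rat. Crypt and dividing cell genes were higher for 6 of 6, with a median of 0.41 and sums of 2976 in the immobilized rat and 2349 in the control rat. Smooth muscle and stroma genes were higher for 4 of 7 (median 0.51), with sums of 1085 in the immobilized rat and 832 in the control rat. Immune genes were higher for 4 of 5 (median 0.19), with sums of 8405 in the immobilized rat and 7634 in the control rat. Goblet, Paneth and Brunner gland genes were lower for 4 of 6 (median -0.23) but lay far apart, with 2 at least 2-fold lower (Reg3b at -2.39 and Reg3g at -1.98) and 2 at least 2-fold higher (Pla2g2a at 1.73 and Lyz2 at 1.04). Their sums were 10164 in the immobilized rat and 13019.5 in the control rat. Red blood cell genes were lower for 2 of 2 (median -0.31), with sums of 192 in the immobilized rat and 254 in the control rat. Of 6 liver genes 4 were under the floor on both arrays, albumin among them, and the other 2 had a median of 0.00, with sums over the list of 201 in the immobilized rat and 228.5 in the control rat. A floor at the 70th percentile turned the stroma median to -0.37, and averaging probe sets turned the immune median to -0.003, so neither list has a settled direction. At least 2-fold higher were 5 exocrine pancreas, 2 immune, 1 crypt and dividing cell and 1 smooth muscle and stroma gene. None of these lists had a gene at least 2-fold lower. Among all 2524 genes above the floor, 49.5% were higher, 2.02% at least 2-fold higher and 0.674% at least 2-fold lower. No marker was listed at 0. The part of these cell types in the Gstm2 and Gsta4 values was not tested, and in whole mucosa fewer cells of a type and less RNA per cell cannot be told apart. The material is labelled as epithelial cells. Above the floor on both arrays were 7 of 8 smooth muscle and stroma genes, 5 of 7 immune genes and 13 of 13 exocrine pancreas genes. Of all 8740 gene probe sets, 4105 were. That share counts every set, whereas the marker counts take only the brightest set of each gene, so the 2 are not like measures. Among the immune genes, Cd74, RT1-Da and RT1-Ba had the highest signals. Ptprc passed the floor in the control rat only and Cd8a in neither rat.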

How the data were processed

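RNA of the duodenal mucosa of 2 rats was hybridised to 1 U34A array each. The deposited table holds the authors' linear signal intensity for each probe set. The submitters' processing notes name MAS5, while the design text gives software of the array maker, version 4.0, that filters and normalizes, so the algorithm is unsettled. The 2% trimmed mean was 215.9 on the immobilized rat's array and 216.0 on the control array, so the deposited intensity values had been scaled. Detection calls were not used here, and the number of arrays limits the precision.

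Sample titles gave the groups. The table has 8799 probe sets, 59 of them array controls. GEO's platform annotation gave 1 gene symbol to 7006, several to 308 and none to 1426. Gene IDs of 6985 of the 7006 were found in RefSeq, which then gave the current symbol, and no member's symbol differed from the annotation's. The immobilized array was multiplied by 1.017 to set the median log2 ratio to 0. The floor was then the 50th percentile of all signals. A set above it on 1 array only got a bound, its signal over the floor. Context genes had 1 value, from the set with the highest mean signal. No test was made. Counts used a 2-fold limit, 3.23 times the technical SD.

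Every member set was named, as were all other transferases and glutathione synthesis genes above the floor and up to 4 genes farthest from 0 in the other pathway lists. With 2 arrays no genes of like pattern could be sought. Members, 5 pathway lists and 8 marker lists were chosen with earlier results of these data known. Alternatives covered scaling, floor, fold limit, bounds and the handling of several sets or genes. The computation was tested on simulated data. Tools were Biopython 1.88 for alignments, matplotlib 3.10.9 for plots, statsmodels 0.14.6 for loess, and Python 3.11.15 with pandas 2.3.3 and numpy 2.4.6.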

Additional observations from a re-analysis of the deposited data

How the results depend on the processing

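The log2 ratios of single transferase probe sets moved by at most 0.11 under 4 other scalings (signals as deposited, 2% trimmed mean, quantile, loess with span 0.3) and floors at the 30th and 70th percentiles. Gstm2 ranged from 0.97 to 1.004 at J02592_s_at and from 0.43 to 0.47 at J03914cds_s_at, and Gsta4 from -0.63 to -0.59 and from -0.49 to -0.46. Near 0, S72505_f_at of Gsta1 turned sign under 4 settings and S72506_s_at of Gsta3 under 1. The median of all members ranged from -0.08 to 0.01, alpha from -0.12 to 0.03 (its sign turned), mu from 0.16 to 0.35, pi from -0.23 to -0.14 and the microsomal set from -0.26 to -0.15. A floor at the 70th percentile also changes the scaling factor, and there the count of members at 2-fold higher was 1, Gstm2. At a 1.5-fold limit 1 member was higher and 1 lower. Over all probe sets the counts at 2-fold, 96 higher and 35 lower, were 215 higher and 125 lower for a floor set at the 30th percentile, and 49 higher and 21 lower for one at the 70th. They were 366 and 224 at 1.5-fold and 26 and 6 at 3-fold, which follows from the limits. With that higher floor, which leaves fewer genes, the smooth muscle and stroma median was -0.37. The immune median was -0.003 with the mean over probe sets, the liver median turned sign under 5 settings (to -0.29), and the villus and goblet medians shrank to -0.18 and -0.12 after loess. The pathway list medians kept within the technical SD of their main values, although glutathione synthesis (-0.21 to 0.01) and glutathione use and export (-0.04 to 0.04) turned sign. No paired analysis was possible because each group has 1 array. No leave-one-out was possible for the same reason. Signal close to or under background limits Gstt1, Gstm5, Gstm7, Gclc, Rxra and the second Gsta2 set, among others.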
